A study of Arabidopsis thaliana with 12 samples.

Results

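Late embryogenesis abundant (LEA) protein genes were examined in a list of accessible chromatin regions of Arabidopsis thaliana seedlings. They were taken as the protein-coding genes whose annotated product contains "late embryogenesis abundant" or "dehydrin" but not "hydroxyproline" in the RefSeq annotation of assembly TAIR10.1, which gave 55 of 27444 protein-coding genes. The words left out mark another family, the hydroxyproline-rich LEA family, which is used below for comparison. The measured items are the Tn5 hypersensitive sites (THSs), stretches into which the transposase Tn5 inserted adapters more often than its surroundings. A THS was given to a LEA gene when it overlapped the gene or the 1 kb upstream of its transcription start site (TSS), and 53 of the 23226 listed THSs met this rule.

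The list comes from ATAC-seq on nuclei of whole seedlings at 10 days after germination, made to ask how Polycomb group (PcG) repression affects chromatin accessibility. The 12 samples were of 6 genotypes with 2 replicates each, all in the Col-0 ecotype, and comprised 5 PcG mutants, bmi1abc, clf28swn7, emf1-2, lhp1 and ring1ab, and the wild type (WT). The genes mutated in bmi1abc and ring1ab encode parts of the H2A ubiquitin ligase, those in clf28swn7 the H3K27 methyltransferases CLF and SWN, and those in emf1-2 and lhp1 the proteins EMF1 and LHP1. The bmi1abc, clf28swn7 and emf1-2 seedlings keep embryonic traits after germination, so whole seedlings of these genotypes and of WT need not hold the same tissues.

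The authors merged the THSs of all 6 genotypes, and the list gives for each THS only its chromosome, start and end. From this list alone no region can be traced to a mutant or to WT, no value below has an error over replicates, and the depth behind a region is unknown. The study's supplementary tables, which include THS positions by genotype, were not used here. The list is longer than the set the authors describe after a filter on low signal, so it may hold weak regions that this filter drops. A THS at a LEA gene therefore says that the region was called in at least 1 genotype, and a gene without one had no region in the merged list. Counts over the LEA genes are set beside the same counts over all protein-coding genes, as descriptions without a test.

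LEA proteins are small, mostly hydrophilic proteins that accumulate in the maturing seed as it dries and, for many members, in leaves and roots under drought, cold or salt. Many have little fixed structure in water and are held to protect membranes and enzymes during dehydration. Their genes are well known targets of abscisic acid (ABA) signalling, in which bZIP factors such as ABI5 and the ABFs bind ACGT-containing elements, the G-box and the ABA-responsive element (ABRE). In cold-induced members CBF/DREB factors bind the C-repeat or dehydration-responsive element (CRT/DRE), and in seeds B3-domain factors such as ABI3 and FUS3 bind the RY element.

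The THSs upstream of LEA genes held many such ACGT elements, and 10 stretches of them are shown, chosen after they were read, because they carry clear examples. Each is at most 140 bases of a THS upstream of the TSS that overlapped no annotated exon, read from TAIR10.1 on the strand of the gene, 5′ to 3′. Capitals mark every G-box (CACGTG) and every ABRE (ACGTGTC or ACGTGGC) on either strand, so that on the printed strand an ABRE may also read GACACGT or GCCACGT, and overlapping matches run together as in CACGTGTC.
AtLEA4-1, chr1:11774314-11774453, plus strand: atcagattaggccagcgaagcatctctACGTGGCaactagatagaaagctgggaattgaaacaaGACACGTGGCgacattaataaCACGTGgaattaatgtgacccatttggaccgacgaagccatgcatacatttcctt
LEA18, chr2:14863416-14863555, minus strand: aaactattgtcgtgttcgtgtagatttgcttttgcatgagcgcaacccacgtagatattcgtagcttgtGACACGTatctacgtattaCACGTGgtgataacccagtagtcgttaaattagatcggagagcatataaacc
LEA4-5, chr5:2090431-2090570, minus strand: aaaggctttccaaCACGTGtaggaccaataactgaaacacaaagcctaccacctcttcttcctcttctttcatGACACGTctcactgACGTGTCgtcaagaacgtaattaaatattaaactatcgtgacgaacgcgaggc
AT2G18340, chr2:7969134-7969273, plus strand: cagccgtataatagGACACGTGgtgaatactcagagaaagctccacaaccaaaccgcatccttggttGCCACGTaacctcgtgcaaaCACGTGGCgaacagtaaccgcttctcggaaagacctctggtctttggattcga
AT3G53040, chr3:19666540-19666679, minus strand: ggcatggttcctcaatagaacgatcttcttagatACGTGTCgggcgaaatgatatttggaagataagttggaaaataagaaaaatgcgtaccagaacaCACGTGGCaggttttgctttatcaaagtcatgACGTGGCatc
AT4G36600, chr4:17263396-17263535, plus strand: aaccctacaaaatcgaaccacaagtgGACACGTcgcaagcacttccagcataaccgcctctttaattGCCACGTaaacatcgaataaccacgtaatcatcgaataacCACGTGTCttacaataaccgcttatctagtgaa
AT1G22600, chr1:7989232-7989371, minus strand: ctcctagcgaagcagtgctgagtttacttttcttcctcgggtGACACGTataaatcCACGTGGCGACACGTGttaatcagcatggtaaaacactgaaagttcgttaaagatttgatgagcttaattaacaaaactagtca
LEA7, chr1:19619478-19619617, plus strand: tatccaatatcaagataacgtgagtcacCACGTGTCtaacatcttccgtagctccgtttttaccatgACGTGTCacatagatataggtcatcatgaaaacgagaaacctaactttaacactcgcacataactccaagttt
ERD14, chr1:28588427-28588566, minus strand: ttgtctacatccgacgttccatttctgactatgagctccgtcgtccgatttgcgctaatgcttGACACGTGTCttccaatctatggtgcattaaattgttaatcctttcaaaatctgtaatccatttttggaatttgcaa
XERO1, chr3:18941785-18941924, plus strand: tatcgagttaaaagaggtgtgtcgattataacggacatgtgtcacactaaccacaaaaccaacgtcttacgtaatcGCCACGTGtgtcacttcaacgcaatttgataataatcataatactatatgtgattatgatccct
A single ACGT core can belong to a G-box and to an ABRE, so distinct cores are counted as well. The ERD14 stretch has 1 core that reads as an ABRE on both strands around a G-box. AtLEA4-1, LEA4-5, AT2G18340, AT3G53040, AT4G36600 and AT1G22600 each show 3 cores in their stretch, and the remaining stretches show 1 or 2. The LEA7 stretch belongs to a THS that also lies upstream of the divergent LEA gene AT1G52680. The THSs of AtLEA4-1, LEA4-5, AT2G18340 and XERO1 also lay at another protein-coding gene, in this order FdC2, AT5G06770, AT2G18330 and LTI30, and those of the other 5 stretches at none.

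A THS lay over the gene or its 1 kb upstream in 38 of the 55 LEA genes (69.1%), against 60.1% of all protein-coding genes. For the TSS or its 1 kb upstream alone, called the promoter here, the count was 35 LEA genes (63.6%) against 47.6% of all. At least 2 THSs were listed for 14 LEA genes (25.5%) against 18.8% of all. The promoter share stood farthest from that of all genes, and the other shares were closer to it. The LEA genes comprised 17 with no THS, 24 with 1, 11 with 2, 2 with 3 and 1 with 4. LEA genes were short, with a median of 1247 bp against 2078 bp for all protein-coding genes, so they offered less gene body for a THS to overlap, and the part of this in the counts was not tested.

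**Figure D1:**
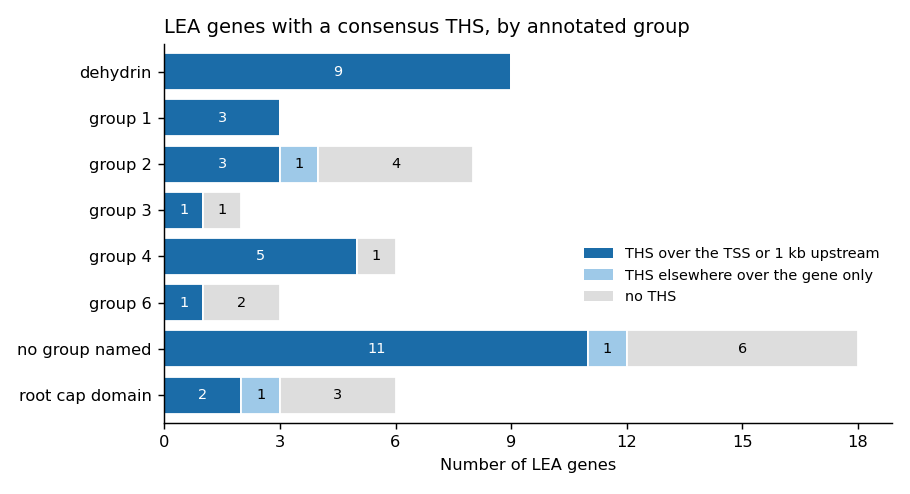
Number of LEA genes in each annotated group, with a THS over the TSS or its 1 kb upstream (dark blue), with a THS only elsewhere over the gene (light blue) and with no THS (grey). All 9 dehydrin genes and all 3 group 1 genes fall in the first class, whereas 4 of 8 group 2 genes have no THS.

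The counts varied among the annotated groups. Every dehydrin gene (9 of 9) and every group 1 gene (3 of 3) had a promoter THS. Except at ERD14, the gene named LEA (AT2G21490) and LEA18, these promoter THSs also lay at another protein-coding gene. Dehydrins are the LEA proteins with lysine-rich K segments, and group 1 here holds AtLEA4-1, LEA18 and LEA4-5, small proteins known to protect enzymes from drying in vitro. Group 4, the genes whose annotation names the repeated LEA domain, had a promoter THS at 5 of 6 genes. The proteins themselves were not searched for this domain, so genes outside group 4 may carry it as well. In group 2, the atypical LEA proteins that fold in water, a THS lay at 4 of 8 genes and a promoter THS at 3. Group 3 had 1 of 2 genes with a THS, and group 6 had 1 of 3. Among the 18 genes for which neither the product nor the annotation note names a group, 12 had a THS and 11 a promoter THS. A further 6 genes are annotated with a root cap domain in spite of their LEA product name, and 3 of these had a THS and 2 a promoter THS. Without these 6 genes the count was 35 of 49 with a THS (71.4%) and 33 with a promoter THS (67.3%).

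**Figure D2:**
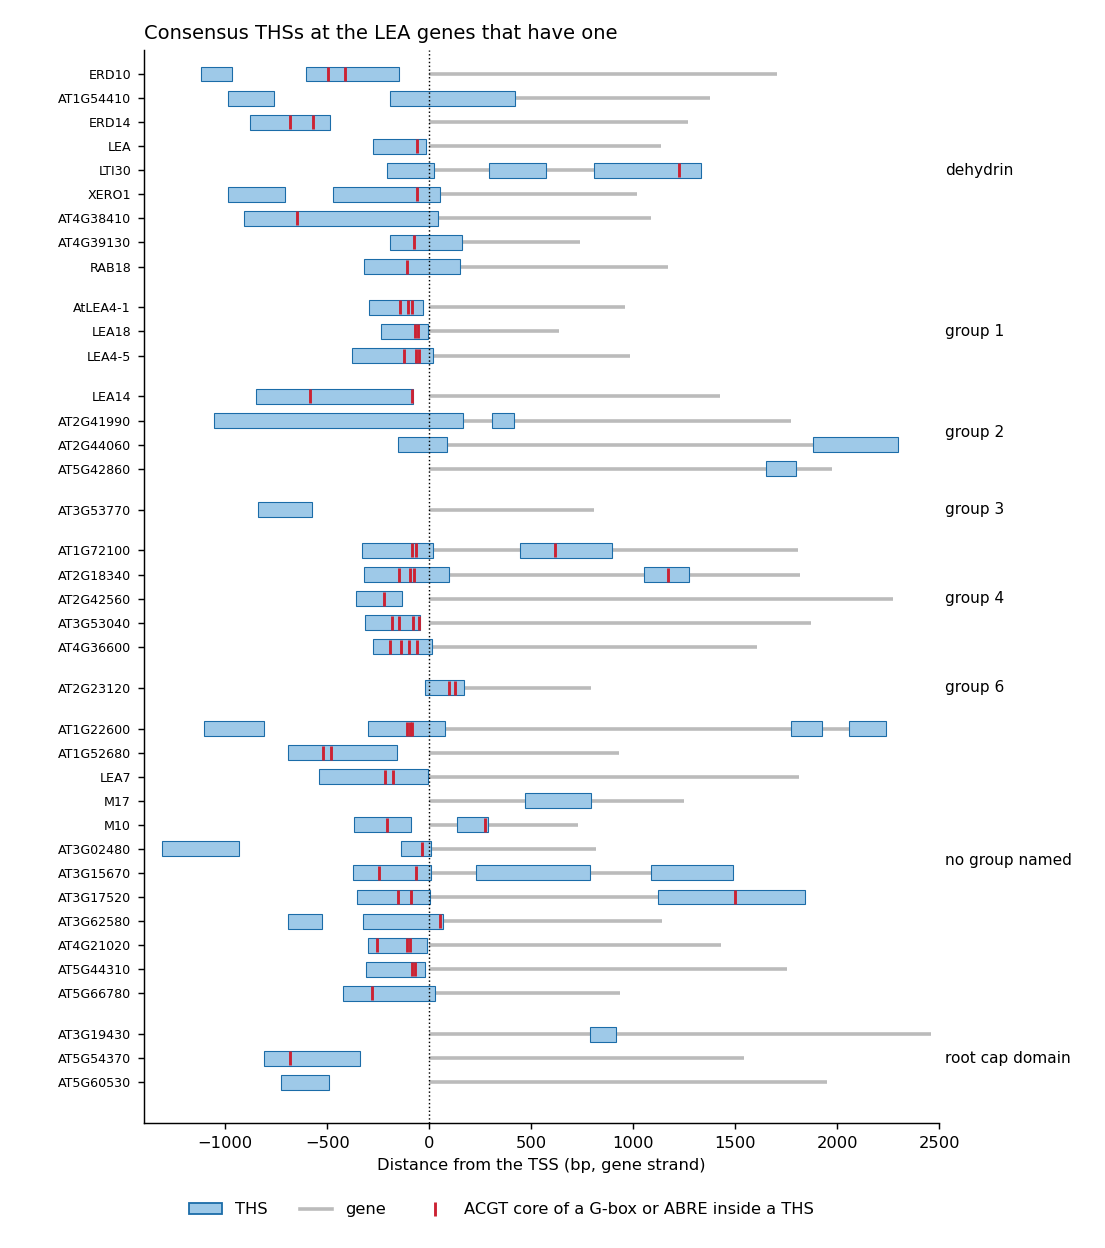
THSs (light blue bars) at the 38 LEA genes that have one, by distance from the TSS in bp along the strand of each gene, with the gene in grey and red ticks at the ACGT cores of G-boxes and ABREs inside THSs. By midpoint, 39 of the 56 bars are upstream of the gene, 24 of them within 300 bp of the TSS, and 30 of the 38 genes have at least 1 tick.

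All 9 dehydrin genes had a THS reaching into the promoter, but its size and place varied. RAB18 (AT5G66400), a dehydrin named for its response to ABA, had 1 THS of 472 bp at chr5:26519294-26519765, which covered its TSS and 31.8% of the 1 kb upstream. It held 1 ABRE, from -111 to -105 relative to the TSS. This ABRE lies in an annotated exon of the neighbouring gene PLP3b, so this THS cannot be given to RAB18 alone.

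ERD10 (AT1G20450) and ERD14 (AT1G76180) are acidic dehydrins induced by dehydration and cold. ERD10 had a THS of 454 bp from -602 to -149 with 2 ACGT cores, and a further THS of 150 bp whose near edge was 969 bp upstream. ERD14 had 1 THS of 393 bp from -879 to -487, with 2 cores. In both genes the 250 bp next to the TSS held neither a G-box nor an ABRE, so the cores in their THSs lay farther out than in most LEA genes.

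LTI30 (AT3G50970), a cold-induced dehydrin known to bind membranes, and XERO1 (AT3G50980) follow each other on the same strand 313 bp apart. LTI30 had 3 THSs, and 2 of these also counted for XERO1. The THS over the LTI30 TSS spanned 231 bp from -208 to 22 and held 3 CRT/DRE matches, and no G-box or ABRE. The THS in the LTI30 coding exon spanned 280 bp. The THS between the genes spanned 526 bp, at chr3:18941452-18941977, ran from -473 to 52 around the XERO1 TSS, and held the core shown above. The adjacent dehydrins thus had promoter THSs of different motif content, CRT/DRE in LTI30 and a G-box with an ABRE in XERO1.

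AT1G54410, a small histidine-rich dehydrin, had a THS of 613 bp over its TSS from -190 to 422 and one of 228 bp at -986 to -759, neither with a G-box or ABRE. AT4G38410 had a THS of 954 bp at chr4:17979768-17980721 that covered 91.0% of its 1 kb upstream and held 4 CRT/DRE matches and 1 core. AT4G39130 had a THS of 355 bp over its TSS with 1 core and 4 RY elements. The dehydrin gene that the annotation names LEA (AT2G21490) had a THS of 262 bp from -277 to -16 with 1 core and 2 RY elements. RY elements were in the THSs of only these last 2 of the 9 dehydrin genes. Over the dehydrin genes the share of the 1 kb upstream covered by THSs had a median of 39.3% and ranged between 19.4% and 91.0%.

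Group 1 and group 4 promoter THSs mostly ended close to the TSS or ran just across it. In group 1, AtLEA4-1 had a THS of 266 bp from -296 to -31, LEA18 one of 235 bp from -238 to -4, and LEA4-5 one of 399 bp from -378 to 20. They held 3, 2 and 3 cores in this order. In group 4, AT3G53040 had a THS of 271 bp from -313 to -43 and AT4G36600 one of 290 bp from -277 to 12, each with 4 cores, the highest number in any THS of a LEA gene. AT2G18340 had a THS of 420 bp over its TSS with 3 cores and AT1G72100 one of 346 bp with 2. Both also had a THS in a coding exon, of 221 bp and 451 bp. AT2G42560 had a THS of 224 bp from -357 to -134 with 1 core. The only group 4 gene without a THS, AT2G03740, had a G-box and an ABRE next to its TSS all the same.

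Group 2 showed other patterns. AT2G41990 had the longest THS of any LEA gene, 1218 bp at chr2:17526114-17527331, which covered its whole 1 kb upstream and its TSS and held no G-box, ABRE, RY element or CRT/DRE, and a second THS of 111 bp in a coding exon. LEA14 (AT1G01470), a folded stress-induced protein, had the third longest of all, 772 bp at chr1:173027-173798, from -850 to -79, with 2 cores. AT2G44060 had a THS of 240 bp over its TSS and one of 418 bp over the end of the gene, and AT5G42860 had a single THS of 147 bp in the 3′ UTR. The THSs of 1218, 240, 418 and 147 bp also lay at another protein-coding gene, in this order AT2G41980, COS1, AT2G44065 and AT5G42850. AT2G46140, AT3G24600, AT3G24605 and AT5G45320 had no THS.

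Among the genes with no group named, AT1G22600 had the most THSs of any LEA gene. Its 4 THSs were 377 bp over the TSS with 3 cores, 294 bp at -1103 to -810, 154 bp in the last part of the coding sequence and 181 bp over the end of the gene. AT3G15670 had 3 THSs, of 388 bp over the TSS with 2 cores and 3 CRT/DRE matches, 563 bp in a coding exon and 403 bp over the end of the gene. AT3G17520 had a THS of 357 bp over the TSS with 2 cores and one of 724 bp over the end of the gene. AT3G02480 had a THS of 146 bp at its TSS with 1 core and one of 377 bp whose near edge was 935 bp upstream. AT3G62580 had THSs of 397 bp and 169 bp, of which the longer covered the TSS.

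M17 and M10, LEA genes of the maturing seed, lie 1998 bp apart on the same strand. M17 had 1 THS of 327 bp inside its coding exon and none in its promoter, whereas M10 had a THS of 279 bp from -368 to -90 with 1 core and one of 152 bp in an intron. AT1G52680 and LEA7 are divergent genes 697 bp apart, and a single THS of 537 bp at chr1:19619184-19619720 filled most of the space between them and held 2 cores. The other neighbouring LEA genes shared no THS. AT2G23110 and AT2G23120, 475 bp apart, had no THS and 1 THS, AT5G60520 and AT5G60530, 762 bp apart, likewise had none and 1, and AT3G24600 and AT3G24605, 200 bp apart, had none.

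Of the 17 LEA genes without a THS, 3 had a G-box or ABRE next to the TSS, namely AT2G03740, AT2G23110 and AT5G53820. The nearest THS beyond the gene and its 1 kb upstream was a median of 1701 bp away for these 17 genes, with a range of 64 bp for AT2G33690 to 3276 bp for AT3G24600. The 1 kb limit fell between few regions. Just inside it lay the near edges of THSs at ERD10 (969 bp), AT3G02480 (935 bp) and AT1G22600 (810 bp), and just outside it those at AT3G62580 (1081 bp), XERO1 (1260 bp) and AT3G02480 (1431 bp).

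**Figure D3:**
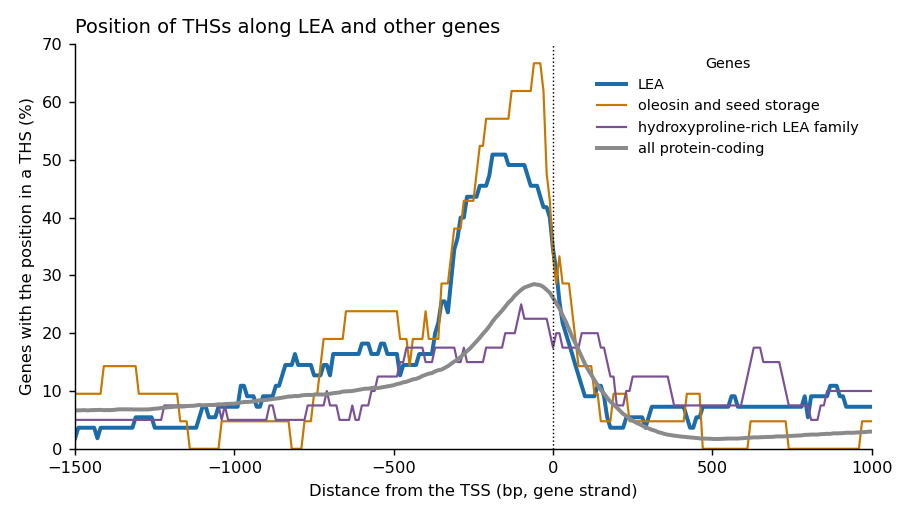
Share of genes in which a position lies inside a THS, in % on the y axis, by distance from the TSS in bp on the x axis, for LEA genes (blue), oleosin and seed storage genes (orange), hydroxyproline-rich LEA family genes (purple) and all protein-coding genes (grey). The LEA curve is highest, at 50.9%, from -190 to -150 bp, and the curve of all genes peaks at 28.5% at -60 bp.

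The THSs of LEA genes were concentrated in the 300 bp upstream of the TSS. The midpoint of a THS lay there in 24 LEA genes (43.6%), against 25.2% of all protein-coding genes, and a THS covered the TSS itself in 19 (34.5%) against 26.1%. Coverage was highest from -190 to -150 bp, where 28 LEA genes (50.9%) lay in a THS, against 22.0% to 24.6% of all genes. It stayed at 27 LEA genes (49.1%) from -140 to -90 bp. The maximum over all genes was 28.5% at -60 bp. In the 35 LEA genes with a promoter THS, the midpoint nearest the TSS had a median position of -176 bp, with quartiles of -323.5 and -116.0 bp and extremes of -707 bp in AT3G53770 and 116 bp in AT1G54410. Over all genes that median was -149 bp.

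The median THS of a LEA gene spanned 294 bp with 39.60% GC, and the median THS of any protein-coding gene 256 bp with 36.65% GC. THSs covered a median of 23.7% and a mean of 24.4% of the 1 kb upstream of a LEA gene, against a median of 0% and a mean of 14.3% over all protein-coding genes. The coverage was uneven, with no upstream base in a THS in 20 LEA genes and over 50% of bases in 6. By midpoint, 39 of the 56 pairs of a LEA gene and a THS were upstream (69.6% against 56.4% over all genes), 8 in coding exons (14.3% against 13.6%), 2 in 5′ UTRs (3.57% against 11.3%), 1 in a 3′ UTR (1.79% against 7.35%), 1 in an intron and 5 downstream of the gene end.

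**Figure D4:**
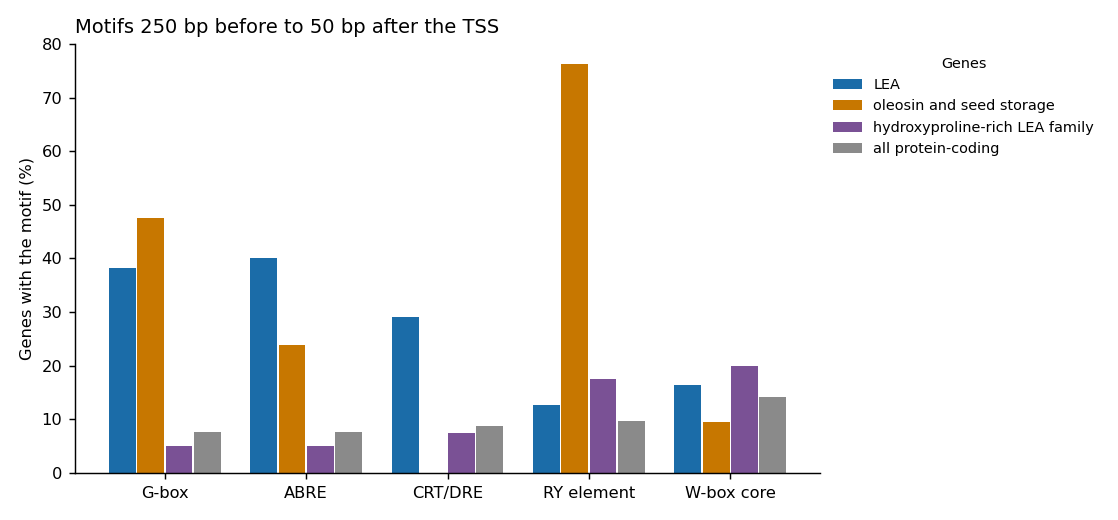
Share of genes, in %, with at least 1 match to each motif between 250 bp before and 50 bp after the TSS, for LEA genes (blue), oleosin and seed storage genes (orange), hydroxyproline-rich LEA family genes (purple) and all protein-coding genes (grey). LEA genes exceed all genes most for G-box, ABRE and CRT/DRE, and only the oleosin and seed storage genes have frequent RY elements.

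The sequence next to the TSS was searched for 5 motifs on both strands, in the 300 bases between 250 before and 50 after the TSS. A G-box was in 21 LEA genes (38.2%) against 7.68% of all protein-coding genes, and an ABRE in 22 (40.0%) against 7.64%. Either of them was in 25 LEA genes (45.5%) against 11.2%. A CRT/DRE (ACCGAC or GCCGAC) was in 16 (29.1%) against 8.72%. The RY element (CATGCA) was in 7 (12.7%) against 9.72% and the W-box core (TTGACC), an element of defence-related WRKY factors, in 9 (16.4%) against 14.2%, so these motifs were about as common as in other promoters. A match is a description of the letters and shows no binding.

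The ACGT elements were not spread evenly over the groups. All 6 group 4 genes and all 3 group 1 genes had a G-box or ABRE in this window, as did 10 of the 18 genes with no group named and 4 of the 9 dehydrin genes. Group 2 and group 6 had 1 gene each, and the 2 group 3 genes and the 6 root cap domain genes had none.

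Promoter THSs were more frequent among the LEA genes with these elements. Of the 25 LEA genes with a G-box or ABRE next to the TSS, 22 had a promoter THS (88.0%), and of the 30 without, 13 (43.3%). Over all protein-coding genes the same shares were 70.1% and 44.8%. The LEA genes without the element thus had a share close to that of all genes without it, but only with the dehydrin genes counted. The 5 dehydrin genes without the element all had a promoter THS. Of the 25 other LEA genes without it, 8 had one (32.0%).

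The THSs themselves held the same motifs. A G-box was in 24 of the 53 THSs of LEA genes (45.3%) against 16.0% of the 17763 THSs at protein-coding genes. An ABRE was in 27 (50.9%) against 15.3%, and either of them in 32 (60.4%) against 21.7%. The RY element was in 8 (15.1%) against 14.9% and the W-box core in 6 (11.3%) against 17.3%. Per kb of THS there were 2.565 ABREs and 1.780 CRT/DRE matches in LEA genes, against 0.644 and 0.439 in all. The THSs of LEA genes were also longer and richer in GC, as given above, and the part of this in the motif shares was not tested.

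In all, 30 LEA genes (54.5%) had at least 1 ACGT core of these elements inside a THS, against 17.6% of all protein-coding genes, and 27 (49.1%) had one upstream of the TSS, against 11.2%. At least 2 upstream cores were present in 17 LEA genes (30.9%) against 3.05% of all. Counted once for each gene, there were 53 upstream cores at LEA genes, with a median position of -108 bp and a range of -684 bp to -34 bp. Of these, 42 lay within 250 bp of the TSS (79.2%), against 46.7% of the upstream cores of all genes.

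**Figure D5:**
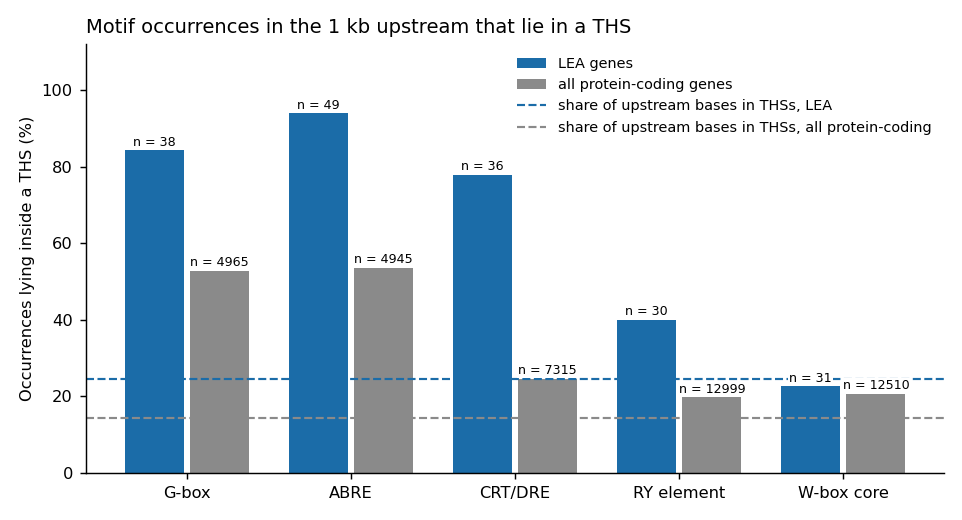
Share of motif occurrences in the 1 kb upstream of the TSS that lie inside a THS, in %, for LEA genes (blue) and all protein-coding genes (grey), with the number of occurrences above each bar and dashed lines at the share of upstream bases inside THSs (24.4% for LEA genes, 14.3% for all). G-box, ABRE and CRT/DRE occurrences of LEA genes lie mostly inside THSs, and W-box cores near the share of bases.

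Within the 1 kb upstream of LEA genes, the elements lay inside THSs in larger shares than the bases did. THSs took 24.4% of these bases, yet they held 32 of 38 G-boxes (84.2%), 46 of 49 ABREs (93.9%) and 28 of 36 CRT/DRE matches (77.8%). They held 12 of 30 RY elements (40.0%) and 7 of 31 W-box cores (22.6%). Over all protein-coding genes THSs took 14.3% of the upstream bases and held 52.8% of G-boxes, 53.5% of ABREs, 24.6% of CRT/DRE matches, 19.7% of RY elements and 20.7% of W-box cores. The CRT/DRE showed the widest gap between LEA genes and all genes. Occurrences in the THS between AT1G52680 and LEA7 count for both genes. The THSs shared by LTI30 and XERO1 lay upstream of XERO1 only, so their occurrences count here for XERO1 alone.

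The hydroxyproline-rich LEA family, membrane-linked proteins related to group 2, was set beside the LEA genes. Of its 40 genes, 26 had a THS (65.0%) and 20 a promoter THS (50.0%), shares near those of all protein-coding genes. A G-box was next to the TSS in 2 of the 40 genes and a CRT/DRE in 3, and coverage was highest at -100 bp, where 10 genes lay in a THS. The 21 oleosin, cruciferin and seed storage albumin genes were taken by product name, and their expression was not examined. They had a THS in 18 (85.7%) and a promoter THS in 16 (76.2%). Their promoter windows held a G-box in 10 (47.6%), an ABRE in 5 (23.8%), an RY element in 16 (76.2%), a W-box core in 2 (9.52%) and a CRT/DRE in none. The widest gaps to the LEA genes were in the RY element and the CRT/DRE. The other genes of the 2S albumin superfamily were first planned for this list but were kept apart. Of these 118 genes, 38 had a THS (32.2%) and 29 a promoter THS (24.6%).

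Genes that encode known regulators of LEA genes were also listed. Of 22 regulators 21 matched the annotation by name, and of these 17 had a THS (81.0%) and 12 a promoter THS (57.1%), against 60.1% and 47.6% of all protein-coding genes. Their genes were longer, with a median of 2634 bp against 2078 bp, and the part of this in the counts was not tested. ABI5, a bZIP factor of the seed ABA response, and ABF1 and ABF4, bZIP factors of vegetative ABA responses, had 2 promoter THSs each, and ABF3 had 1 of 939 bp. DREB2A, a factor that binds the CRT/DRE under drought, had 1 of 1055 bp. ABI3 and LEC1, activators of seed maturation, ABF2, and VAL1, a repressor of the seed programme, had no THS. Among the other listed regulators, ABI4, FUS3, CBF1, CBF2, CBF3, VAL2 and VAL3 each had a promoter THS. LEC2, L1L, EEL, DOG1 and WRI1 had a THS only outside the promoter.

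Many THSs of LEA genes, like those of protein-coding genes in general, could also belong to a neighbour. Of the 38 LEA genes with a THS, 16 had all their THSs at no other protein-coding gene. This share was near the 47.4% of all genes with a THS. Of the 53 THSs, 27 lay at no other protein-coding gene, and the same share over all THSs was not computed. AT3G53040, AT4G36600, AT1G22600, LEA18, LEA14 and ERD14 were among the genes whose promoter THS was at no other gene.

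The encoded proteins were mostly small and hydrophilic. The 55 LEA proteins, translated from the reference sequence, had a median length of 189 residues against 348 for all proteins, and a median mean hydropathy on the Kyte-Doolittle scale of -0.97 against -0.29, where lower is more hydrophilic. Cysteine was absent in 26 (47.3%) against 5.75%. The lowest hydropathy was that of the dehydrin AT1G54410 (-1.87) and the highest that of AT3G62580 (0.32). A promoter THS was present at 20 of the 26 genes with a hydropathy below -1 (76.9%), and at 15 of the other 29 (51.7%), where all protein-coding genes had 49.9% and 47.6%. Of the 9 dehydrin genes, 8 were below -1, and all 9 had a promoter THS. Their part in this gap was not tested. The limit of -1 was chosen after the values were seen.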

How the data were processed

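ATAC-seq reads of 12 seedling samples (6 genotypes, 2 replicates each) were trimmed, mapped to TAIR10 without organelle genomes and freed of duplicates by the authors, who called peaks per replicate with MACS2 (extension 200 bp), intersected replicates and merged the genotypes. The deposited file holds only coordinates of that merged list, in 3 columns, with no count, score or signal, and 0 columns of single samples. A merge keeps a region open in any genotype, and replicate intersection can leave short pieces.

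Regions were converted to positions counted from 1 and overlapped with RefSeq TAIR10.1 (chromosomes 1 to 5) in Python 3.11.15 with NumPy 2.4.6, and plotted with matplotlib 3.10.9. The TSS was the outer 5′ end of the gene record. Motifs were matched exactly on both strands. Proteins were translated from the annotated coding sequence. The scripts were tested on simulated data. The members and gene lists were chosen with earlier results of these data known. Genes named were every dehydrin gene, every LEA gene with at least 2 THSs, those with the 3 longest THSs or with a THS edge nearest the 1 kb limit, neighbouring LEA genes within 10 kb, and up to 4 examples per group. Alternatives were upstream limits of 500 bp and 2 kb, an upstream window stopped at the neighbouring gene, midpoints in place of overlap, regions of at least 200 bp or at the promoter only, merging of regions less than 150 bp apart, genes whose every product matched, neighbours of any gene type, and motifs on the sense strand or in windows of 500 bp and 1 kb.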

Additional observations from a re-analysis of the deposited data

How the results depend on the processing

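No paired analysis was possible because the list merges all samples, and for the same reason no replicate could be left out. Of 56 alternative values for 11 results, 53 stayed within 1.5 times the reported count or within the 95% interval of the reported median. Some of these could not differ from the reported value. Every product matched in all 55 LEA genes, and the G-box reads the same on both strands. Others could move in 1 direction only, as the 9 of 9 dehydrin genes with a THS could not rise. The limit was set on the LEA values alone, while the shares over all genes also moved. With regions of at least 200 bp, 35 of 55 LEA genes had a THS, against 45.9% of all protein-coding genes. With an upstream limit of 2 kb, 41 of 55 had one, against 67.3%. The count of LEA genes with at least 2 THSs was 9 with an upstream limit of 500 bp (14.2% of all protein-coding genes) and also 9 with regions of at least 200 bp (8.58% of all). The count as reported was 14. The median share of the upstream sequence covered, 23.7% as reported (95% interval 0 to 29.4), was 38.0% with the limit of 500 bp, where the share is taken over fewer bases. This interval is over the LEA genes and is no error over replicates. It reaches the median of 0% over all protein-coding genes. Leaving out the root cap domain genes, as given above, was chosen after the data were seen, and so was adding 8 known LEA genes whose products are worded otherwise (EM1, GEA6, COR47, COR15A, COR15B, SAG21, DI21 and ECP63). With these added, 44 of 63 genes had a THS (69.8%) and 40 a promoter THS (63.5%). Without depth, signal or genotype, the list cannot tell a strong region from a weak one or a mutant from WT.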

Other observations

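The 8 known LEA genes whose products carry other names differed among themselves. EM1 and GEA6, the Em proteins of the dry seed, had 2 promoter THSs and 1, COR47, a cold-regulated dehydrin, had a promoter THS over its TSS, and ECP63 had a promoter THS centred 152 bp upstream. COR15A and COR15B, adjacent cold-regulated genes of the chloroplast, had no THS. DI21 had a THS but none in its promoter, and the promoter THS of SAG21 was centred 873 bp upstream.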
